A study of Canis lupus familiaris with 22 samples.

Results

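Malignant mammary tumours of dogs were compared with healthy mammary tissue by 13 of the 22 arrays of the series. The 9 malignant arrays came from 5 dogs, labelled malignant 1 to 5, and the 4 healthy arrays from 2 dogs, labelled healthy 1 and 2. Members were chosen by their labels: arrays of malignant mammary tumours (1a to 5a, with the second arrays of dogs 1 to 4) and of healthy tissue (1a to 2b) for which scanner values were analysed. Per the study's methods, the tumours were clinical cases taken at surgery and the healthy tissue came from healthy dogs and was examined by histology. The labels give no age, breed or treatment for either group. The labels give no histological type, but the study's supplement types its tumours under codes whose group and number match the titles of the malignant arrays. The supplement also codes healthy and benign samples that have no array in the series, and the match of codes to dogs was not tested. By these codes malignant dog 1 had a tubuloacinar solid carcinoma, dog 2 a mixed papillary and squamous tumour, dog 3 a myoepithelioma, dog 4 a squamous cell carcinoma and dog 5 a lipid rich carcinoma. Arrays a and b of a dog are duplicates of 1 sample in the study's methods and biological duplicates in the labels, and they were averaged here as 1 dog, so that n counts dogs. Where the text says level, it means the log2 signal of a gene's probe minus the 75th percentile of its array, so that 0 is that percentile, and levels are compared between dogs for 1 gene and not between genes. A difference is a malignant minus a healthy level on the same scale.

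The mammary gland is built from milk-forming epithelium, a contractile myoepithelial layer and a stroma of fat, collagen, vessels and immune cells. Malignant tumours of the gland are known for dividing cells, for matrix that is broken down and rebuilt, and for infiltrating macrophages. Cells that divide make the B-type cyclins, the spindle and the survivin protein as they enter mitosis, and they repair DNA during replication through BRCA1 and its partners. In bulk tissue, fewer cells of a type and less RNA per cell cannot be told apart.

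The probes that were well above background made up 63.7% to 76.4% of all probes on the malignant arrays (median 72.5%) and 62.2% to 71.4% on the healthy arrays (median 67.8%). The number of arrays limits the precision. The arrays lay on 6 slides, 3 of which held both groups, and malignant dog 5 had 1 array, the only one of the 13 on its slide. The healthy dogs differed from each other by at least 1 in 12733 of 27249 genes tested. Their levels correlated across genes at r = 0.850, inside the range of 0.817 to 0.939 for pairs of malignant dogs. Pairs of a malignant and a healthy dog correlated at 0.792 to 0.934, so the highest of them exceeded the healthy pair. The healthy label was checked against mammary markers. The keratins KRT14, of basal and myoepithelial cells, and KRT19, of luminal cells, had levels of 3.92 and 3.34 in healthy dog 1 and of 5.002 and 5.19 in healthy dog 2, well above background on all 4 healthy arrays. Both keratins were chosen for this check after their values were seen, and KRT19 is also a keratin of pancreatic ducts. Other mammary markers were low in healthy dog 1, where KRT15 was at -0.11, LALBA at -4.41 and CSN2 at -5.90, and the 22 mammary epithelial genes had a mean level of -1.22 in healthy dog 1 and 0.51 in healthy dog 2. CSN2 was not well above background on either array of healthy dog 1. Both healthy dogs also carried genes of the pancreas. The 8 digestive genes of the exocrine pancreas that were tested had a mean level of 7.65 in healthy dog 1 and 4.41 in healthy dog 2, against -4.30 to -2.67 in the malignant dogs. The part of this tissue in the other differences was not tested, and results are therefore given against each healthy dog as well as against both.

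With the threshold for the adjusted p set at 0.05 (limma, Benjamini-Hochberg over every gene tested), 68 genes were lower in the tumours (0.25% of those tested) and 1 was higher (0.00367%). Every malignant dog lay below both healthy dogs in all 68, and all 68 were higher in healthy dog 1 than in healthy dog 2. Symbols were known for 16 of the genes called. Of these, 10 were on the lists of exocrine pancreas, islet, liver and gut genes, among them CLPS (colipase), PLA2G1B (a secreted phospholipase), INS (insulin) and SST (somatostatin), and they are set aside below. The difference was -11.71 for CLPS (SE 0.565, adjusted p = 3.18e-05 from limma), the level being -2.68 to -1.83 in the malignant dogs and 9.95 and 8.67 in the healthy dogs. The 1 gene called higher has no symbol, ENSCAFT00000042939 on the array. Its levels were -0.77, -2.17, -1.83, -1.87 and -2.54 in malignant dogs 1 to 5 and -6.87 and -5.67 in the healthy dogs, where no array was well above background. Its level in the tumours was at least 8.42-fold higher (limma adjusted p = 0.0291). No gene was called higher with the table of spot signals, normexp, the strictest filter or the replicate block, nor without malignant dog 1, 3 or 4 or healthy dog 1. With 5 and 2 dogs the smallest p of an exact two-sided permutation test is 0.0952, so single genes rest on the model.

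Each healthy dog was then used alone. Against healthy dog 1, limma called 43 genes higher (0.158%) and 468 lower (1.72%). Against healthy dog 2, it called 0 genes higher, with 124 at an unadjusted p of at most 0.05, and 47 lower (0.172%). Called against each healthy dog were 45 genes, all lower (0.165%), and all 45 were among the 68. Of the 12 with a symbol, 9 were pancreas, islet or gut genes, and the remaining 3 were LOC479649, LOC100687463 and DNASE1. The fits against each healthy dog use the same malignant dogs, so they are not separate tests. The 3 named genes called higher against healthy dog 1 were CCNB2, PRKDC and MT4 (adjusted p = 0.0269, 0.0264 and 0.0418 from limma). CCNB2 and PRKDC had positive differences of 3.43 and 0.73 from healthy dog 2 as well. MT4, a metallothionein of squamous epithelium that is named here after its values were seen, had a difference of 4.68 from healthy dog 1 and of -2.58 from healthy dog 2.

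**Figure D1:**
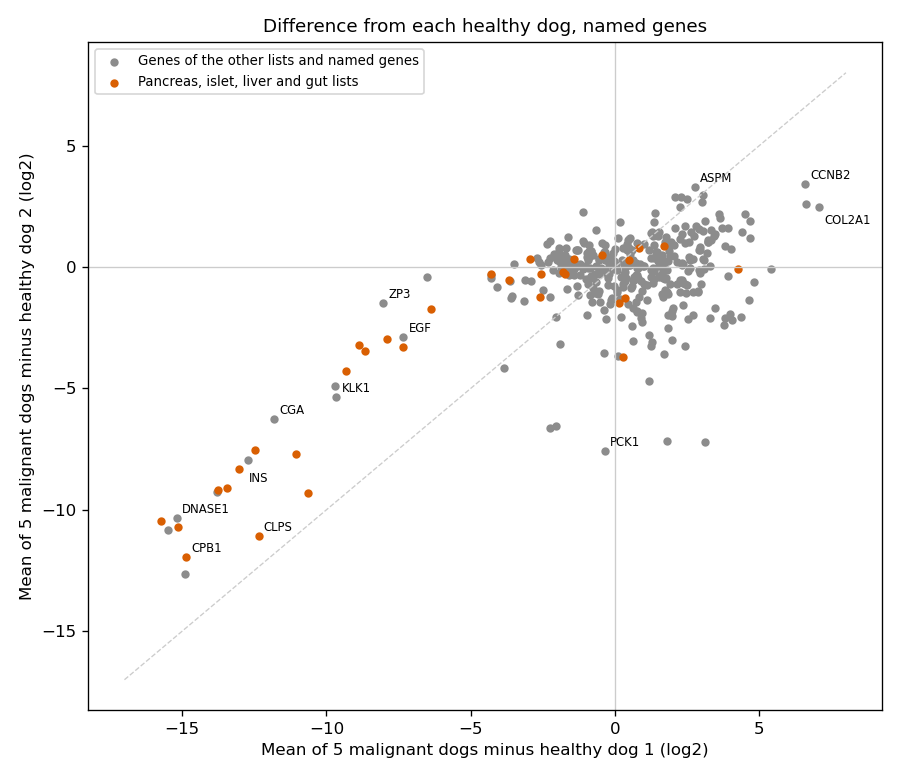
Mean level of the 5 malignant dogs minus healthy dog 1 (x axis, log2) and minus healthy dog 2 (y axis, log2), 1 point per gene of the lists or named in the text, orange for the pancreas, islet, liver and gut lists, with equal differences on the dashed line. CPB1, CLPS and INS lie far below 0 on both axes and above the dashed line, PCK1 is at -0.34 and -7.60, and CCNB2 is at 6.59 and 3.43.

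A stricter count asked that every malignant dog lie at least 1 above, or at least 1 below, each healthy dog. It was met upwards by 75 genes (0.275%) and downwards by 197 genes (0.723%). Against 1 healthy dog the same count was larger, 1643 genes above healthy dog 1 (6.03%), 173 above healthy dog 2 (0.635%), 2050 below healthy dog 1 (7.52%) and 559 below healthy dog 2 (2.05%). Symbols were known for 6 of the 75 genes, CCNB2, CCNB3, ASPM, H19, BIRC5 and BHLHE41. Of the 26 named genes among the 197, 15 were pancreas, islet, liver or gut genes. The count upwards was 18 with the table of spot signals of the same arrays and 11 with the normexp background correction, and the count downwards was 108 and 100. In 34 of the 75 no healthy array was well above background, and in 40 of the 197 no malignant array was. Such genes entered the test through the other group alone.

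The 3 named genes with the widest gap between the lowest malignant and the higher healthy dog, CCNB2, CCNB3 and ASPM, encode proteins of dividing cells. CCNB2, which encodes cyclin B2, a partner of the kinase that starts mitosis, had levels of 0.67, -0.44, 1.99, 1.17 and -0.99 in malignant dogs 1 to 5, and of -6.11 and -2.95 in the healthy dogs. All tumours were higher than both healthy dogs, malignant dog 3 most and malignant dog 5 least. The difference was 5.01 (SE 1.02, adjusted p = 0.190 from limma), which did not pass the threshold. Neither array of healthy dog 1 was well above background for CCNB2, and both arrays of healthy dog 2 were. CCNB3, a meiotic and mitotic cyclin of the same family, had levels of -0.30, -2.74, -1.73, -1.68 and -2.92 in the tumours and -4.90 and -4.56 in the healthy dogs. Its difference was 2.86 (SE 0.747, adjusted p = 0.460 from limma), with the tumour values spread over a wider range than the healthy pair. For CCNB3 too, neither array of healthy dog 1 was well above background.

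ASPM, a protein of the spindle poles, had levels of -0.71, -2.63, -1.61, -1.23 and -1.21 in malignant dogs 1 to 5 and -4.25 and -4.79 in the healthy dogs. Its difference of 3.04 (SE 0.621, adjusted p = 0.190 from limma) came with healthy values close to each other and above background on all 4 arrays. BIRC5, which encodes survivin, a protein of dividing cells that also blocks cell death, had levels of 1.57, 0.33, 1.79, 1.47 and 1.25 in the tumours and -1.01 and -1.60 in the healthy dogs. Malignant dog 2 was the lowest of the tumours and stood 1.35 above healthy dog 1. The difference was 2.59 (SE 0.573, adjusted p = 0.265 from limma), and it was 2.30 from healthy dog 1 and 2.88 from healthy dog 2. CDK2AP1, which encodes a protein that binds the kinase CDK2, lay between 2.97 and 4.64 in the tumours and at 2.20 and 2.27 in the healthy dogs. With the normexp correction, the lowest tumour no longer lay above both healthy dogs in CCNB3, ASPM and H19 (margins of -0.33, -0.40 and -0.06), and it did in CCNB2, BIRC5 and BHLHE41 (1.00, 1.02 and 1.15).

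**Figure D2:**
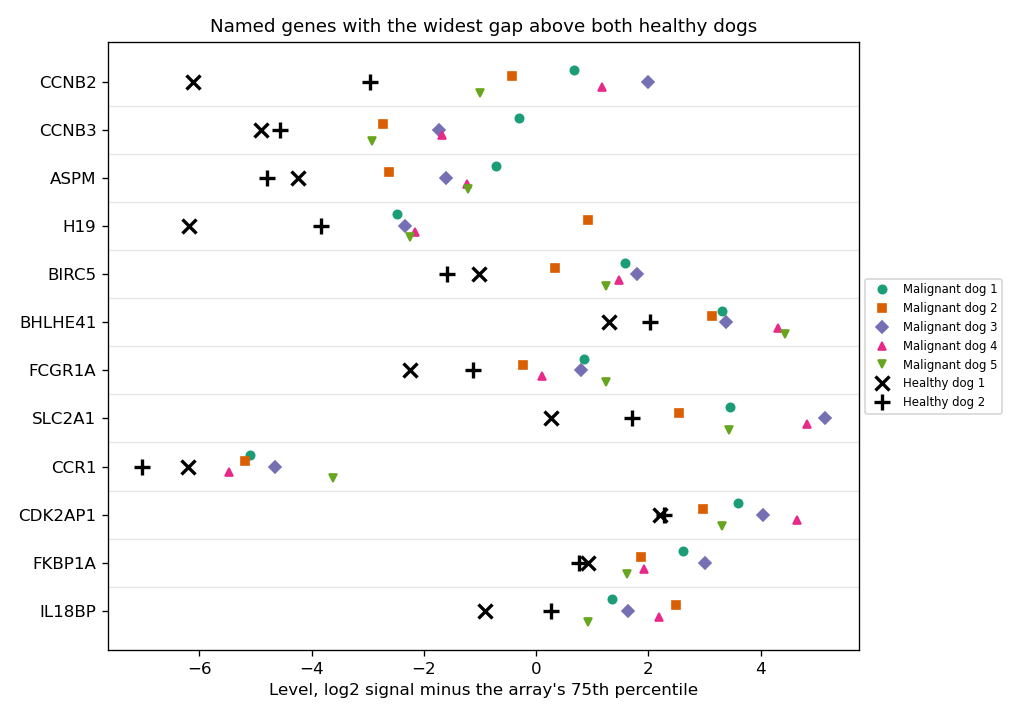
Levels (x axis, log2 signal minus the 75th percentile of the array) of the 12 named genes with the widest gap upwards among genes that passed the background flag in both groups, outside the pancreas, islet, liver and gut lists, with 1 coloured symbol per malignant dog and a cross or plus for each healthy dog. All 5 tumours lie to the right of both healthy dogs in each row, by 1.96 in CCNB2 and by 0.66 in IL18BP.

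The list of cell division genes held 76, of which 15 had a probe with a symbol and were tested. The others, MKI67, TOP2A and CDK1 among them, could not be examined. Of the 15 tested, 5 had every tumour above both healthy dogs and 0 had every tumour below them, where 4.34% of all genes tested lay above and 2.75% below. The median difference of the 15 was 0.28, against 0.07 over all genes tested. CCND1, cyclin D1 of the early cycle, was at 2.87, 2.12, 2.47, 3.21 and 0.95 in the tumours and at 0.85 and 1.06 in the healthy dogs, so that malignant dog 5 lay between the healthy dogs. Of 41 DNA damage response genes listed, 8 had a probe with a symbol and were tested. In 4 of the 8 every tumour lay above both healthy dogs, and the median difference was 1.58. BRCA1, a protein of the repair of DNA breaks, was above background on 8 of 9 tumour arrays, all but that of malignant dog 5, and on 0 of 4 healthy ones. With the main processing its level in the tumours was at least 1.86-fold higher (limma adjusted p = 0.631). Its difference of 2.65 fell to 0.10 under an alternative. PRKDC, the kinase of end joining, was at 0.55 to 1.34 in the tumours and at -3.20 and 0.08 in the healthy dogs, and its difference was 4.00 from healthy dog 1 and 0.73 from healthy dog 2. APEX1, an endonuclease of base excision repair, was at -0.24 to 1.36 in the tumours and at -0.66 and -0.61 in the healthy dogs.

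Macrophages and other myeloid cells were described by 26 genes that were tested. Of these, 24 had a positive mean difference from healthy dog 1 and 17 from healthy dog 2, where 14612 and 15172 of 27249 genes did, and the median differences were 2.31 and 0.37. Every tumour lay above both healthy dogs in 5 of the 26, beside 4.34% of all genes tested. FCGR1A, a high-affinity receptor for antibodies on macrophages, was at 0.86, -0.24, 0.81, 0.10 and 1.25 in the tumours and at -2.26 and -1.13 in the healthy dogs. Its difference was 2.25 (SE 0.616, adjusted p = 0.543 from limma). CD86, a costimulatory protein of antigen-presenting cells, was at 0.93 to 2.92 in the tumours and at -1.05 and 0.52 in the healthy dogs. SLC11A1, a metal transporter of phagosomes, was at 3.09 to 4.64 in the tumours and at 0.40 and 2.55 in the healthy dogs, and CD40, a receptor that T cells engage, was at 0.73 to 2.21 against -1.93 and 0.26. CCR1, a chemokine receptor, was above background on 5 of 9 tumour arrays and on 1 of 4 healthy ones, and its difference of 1.80 turned to -0.16 with the normexp correction and -0.08 with the table of signals.

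Of 41 chemokines, cytokines and receptors, 5 had every tumour above both healthy dogs, beside 4.34% of all genes tested. The median difference of the 41 was 0.08, near that of all genes. CCL2, which draws monocytes, was at 4.58, 3.35, 4.21, 3.22 and 2.35 in the tumours and at -0.37 and 1.92 in the healthy dogs. The healthy dogs were apart by more than the lowest tumour stood above the higher of them. CXCL8, which draws neutrophils, was at 1.58, 0.76, -0.66, 2.30 and -0.25 in the tumours and at -2.37 and -1.15 in the healthy dogs. CCL8 and CCL17 lay at -1.65 to 1.37 and at -3.31 to -1.09 in the tumours, above the healthy values of -3.26 and -1.93 for CCL8 and of -6.86 and -3.90 for CCL17. Neither array of healthy dog 1 was well above background for CCL17. IL18BP, a secreted protein that binds interleukin 18, was at 0.93 to 2.49 in the tumours and at -0.91 and 0.26 in the healthy dogs. Genes of class II antigen presentation overlapped: DLA-DRA was at 5.71, 4.49, 2.35, 4.07 and 6.38 in the tumours and at 0.80 and 3.73 in the healthy dogs, with malignant dog 3 between them. In the 17 antigen presentation genes and the 15 lymphocyte genes, no gene had every tumour on one side of both healthy dogs. Of all genes tested, 4.34% lay above and 2.75% below in this way.

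MMP9, a gelatinase made by neutrophils and macrophages among other cells, was at -1.86, 2.04, 0.58, 1.49 and -0.31 in the tumours and at -6.22 and -2.20 in the healthy dogs. Malignant dog 1 stood 0.34 above healthy dog 2. Neither array of healthy dog 1 was above background for MMP9. The difference was 4.60 (SE 1.25, adjusted p = 0.541 from limma) and 2.09 with the mean over probes, and the 3 other probes of the gene, 1 of them above background on enough arrays to be tested, gave differences from -0.48 to 4.37. MMP12, the elastase of macrophages, was at -1.36, -0.80, -3.67, -0.13 and -0.35 in the tumours and at -4.32 and -4.22 in the healthy dogs, and malignant dog 3 was the lowest of the tumours. These were the 2 genes of 11 in their list with every tumour above both healthy dogs, beside 4.34% of all genes tested. The median of the 11 was 2.34 from healthy dog 1 and -0.09 from healthy dog 2.

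Glucose uptake and the response to low oxygen gave 3 of 12 genes above both healthy dogs in every tumour, beside 4.34% of all genes tested. The median difference of the 12 was 0.21, against 0.07 over all genes tested. From healthy dog 1 the difference was positive in 7 of the 12, and from healthy dog 2 also in 7. SLC2A1, the glucose transporter GLUT1, was at 3.45, 2.54, 5.15, 4.82 and 3.43 in the tumours and at 0.27 and 1.71 in the healthy dogs. Its difference was 2.89 (SE 0.809, adjusted p = 0.569 from limma), with malignant dogs 3 and 4 highest. HIF1A, the factor that mediates the response to low oxygen, reached 4.69 in the tumours, the lowest of which stood 0.22 above healthy dog 2, and was at 2.25 and 2.78 in the healthy dogs. GAPDH, an enzyme of glycolysis, was at 6.12 to 7.60 in the tumours and at 5.49 and 5.33 in the healthy dogs, and its 6 other probes gave differences of 0.82 to 1.27. BHLHE41, a transcription factor of the circadian clock that is also induced by low oxygen, was at 3.32, 3.12, 3.38, 4.31 and 4.43 in the tumours and at 1.29 and 2.02 in the healthy dogs. The difference was 2.05 (SE 0.592, adjusted p = 0.614 from limma). H19, an imprinted noncoding RNA of the fetus, was at -2.49, 0.93, -2.33, -2.15 and -2.25 in the tumours and at -6.18 and -3.84 in the healthy dogs. Malignant dog 2 was apart from the other 4 tumours, which lay close together. For H19, neither array of healthy dog 1 was well above background, and both arrays of healthy dog 2 were.

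None of the genes from CCNB2 to H19 above passed the adjusted threshold. Of 337 genes on the 21 lists outside pancreas, islet, liver and gut, limma called 0. At an unadjusted p of at most 0.05, it counted 25 of them higher (7.42%) and 8 lower (2.37%), where 1.81% and 2.94% of all genes tested were. The methods' t-test counted 21 and 3 of the 337, beside 585 higher and 497 lower of all 27249 genes tested. Every tumour lay above both healthy dogs in 28 of the 337 (8.31%) and below both in 4 (1.19%), beside 4.34% and 2.75% of all genes tested. The lists were written with earlier results of these data known, so these counts are a description.

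Outside the set-aside lists, 6 named genes were called lower, LOC479649, LOC100687463, DNASE1, GATM, TMED11 and CGA. DNASE1, a secreted nuclease, was at -5.89, -7.91, -5.60, -6.53 and -7.65 in the tumours and at 8.48 and 3.61 in the healthy dogs. Its difference was -12.76 (SE 1.21, adjusted p = 0.00152 from limma), and -8.98 with normexp. DNASE1 was above background in the tumours on the 2 arrays of malignant dog 1 and on none of the others. GATM, the first enzyme of creatine synthesis, was at -7.25 to -2.96 in the tumours and at 8.17 and 3.64 in the healthy dogs, and TMED11, a cargo protein of the secretory pathway, was at -8.05 to -4.39 against 5.87 and 1.096. Their differences were -11.54 and -10.33 (adjusted p = 0.00761 and 0.0136 from limma), and -8.25 and -6.42 with normexp. Among the tumours, GATM was above background in malignant dogs 1 and 2 and TMED11 in malignant dog 2. Neither was called without malignant dog 3 (adjusted p = 0.0517 for GATM and 0.0719 for TMED11 from limma) or without healthy dog 1 (0.0870 and 0.117). CGA, the alpha subunit shared by the pituitary glycoprotein hormones, was at -7.51 to -5.70 in the tumours and at 4.88 and -0.68 in the healthy dogs (adjusted p = 0.0243 from limma). It was called under 8 of 20 alternatives, and was lost with normexp (adjusted p = 0.114), without healthy dog 1 (0.0511) and without malignant dog 2, 3, 4 or 5 (0.0706 to 0.1002). In each of the 6, healthy dog 1 was higher than healthy dog 2, as it was in the 10 set-aside genes that were called. Absence from the lists does not place a gene outside the pancreas, and the part of pancreas tissue in these 6 was not tested. LOC100687463 was above background on 0 of 9 tumour arrays and on 4 of 4 healthy ones. Its level in the tumours was at least 4711-fold below the mean of the healthy dogs, which were at 9.11 and 4.49.

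Several genes that were not called had every tumour below both healthy dogs. KLK1, tissue kallikrein, a protease of glandular secretions, was at -0.68, -0.62, 3.13, -0.12 and -1.98 in the tumours and at 9.60 and 5.30 in the healthy dogs (adjusted p = 0.141 from limma). HSD3B2, an enzyme of steroid hormone synthesis, was at -7.82 to -3.22 in the tumours and at 3.30 and -1.49 in the healthy dogs, and was above background on 1 of 9 tumour arrays. EGF, epidermal growth factor, was above background on 0 of 9 tumour arrays and on 4 of 4 healthy ones. With healthy levels of 0.43 and -4.03, its level in the tumours was at least 12.7-fold below the healthy mean (limma adjusted p = 0.210). The bound is smaller against healthy dog 2 alone, and the difference of -5.10 shrank to -1.92 under an alternative. ZP3, a protein of the egg coat, was at -3.09 to -1.70 in the tumours and at 5.56 and -0.97 in the healthy dogs. In EGF, KLK1, HSD3B2 and ZP3 healthy dog 1 was the higher of the healthy dogs by more than 4. The part of pancreas tissue in these genes was not tested either.

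In other genes with a lower mean in the tumours, the healthy dogs lay closer to each other. ALDH1A1, an aldehyde dehydrogenase that makes retinoic acid, was at -5.23, 0.21, -1.78, -0.83 and -5.90 in the tumours and at 1.13 and 1.45 in the healthy dogs, and its difference was -3.996 (SE 1.58). P2RY12, a receptor for ADP on platelets and microglia, was at -6.24 to -4.05 in the tumours and at -3.14 and -3.09 in the healthy dogs. It was not above background in malignant dogs 3 and 4. PGR, the progesterone receptor, was at -0.89, -0.65, -3.89, -2.45 and -4.13 in the tumours and at -0.50 and 0.78 in the healthy dogs. Malignant dogs 1 and 2 lay close to healthy dog 1, and dogs 3 and 5 were lowest. VWF, a clotting protein of vessel walls, was at 3.07 to 5.42 in the tumours and at 5.01 and 6.03 in the healthy dogs, so malignant dog 2 lay between them. The adjusted p of these 4 lay between 0.767 and 1.00 from limma.

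**Figure D3:**
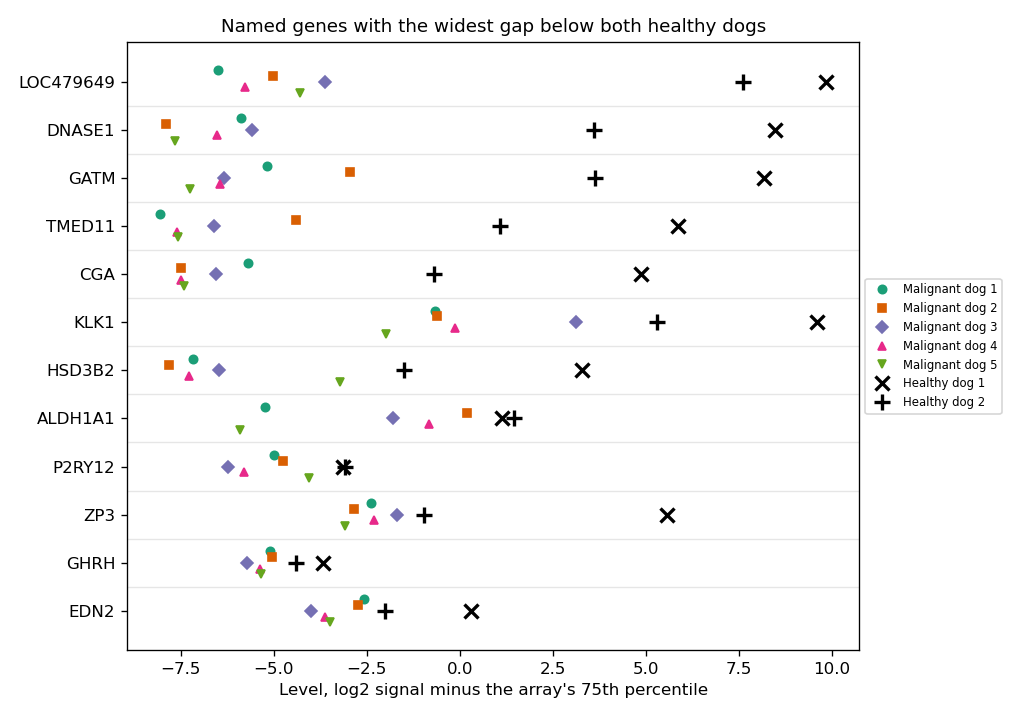
Levels (x axis, log2 signal minus the 75th percentile of the array) of the 12 named genes with the widest gap downwards among genes that passed the background flag in both groups, outside the pancreas, islet, liver and gut lists, with 1 coloured symbol per malignant dog and a cross or plus for each healthy dog. All 5 tumours lie to the left of both healthy dogs, and healthy dog 1 is far to the right of healthy dog 2 in DNASE1, GATM, TMED11, CGA, KLK1, HSD3B2 and ZP3. With the normexp correction, the highest tumour no longer lay below both healthy dogs in P2RY12 and GHRH (margins of -0.07 and -0.86).

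The lists were also compared by their mean level in each dog. Cell division genes were at 0.30 to 0.59 in the tumours and at -0.29 and -0.39 in the healthy dogs, and DNA damage response genes at -1.41 to 0.11 against -2.70 and -1.71. Both means were above both healthy dogs in every tumour. For cell division the 4 members named by the rule, CCNB2, CCNB3, BIRC5 and CCND1, carried the mean: the other 11 had a mean difference of 0.02, and their mean level was 0.24 to 0.68 in the tumours and 0.62 and 0.20 in the healthy dogs. Myeloid genes were at -0.95 to 0.34 in the tumours, with healthy dog 1 at -2.29 and healthy dog 2 at -0.28, inside the tumours' range. The same held for metalloproteinases, at -1.16 to -0.61 in the tumours and at -3.54 and -0.87 in the healthy dogs. Genes of the secretory pathway were at 5.56 in healthy dog 1 and at 3.53 in healthy dog 2, against 3.73 to 4.61 in the tumours, and ribosomal protein genes at 9.15 and 7.71 against 7.39 to 8.41. Healthy dog 1, which carried more of the pancreas genes, was thus the highest dog in both lists, and the part of that tissue in these levels was not tested.

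**Figure D4:**
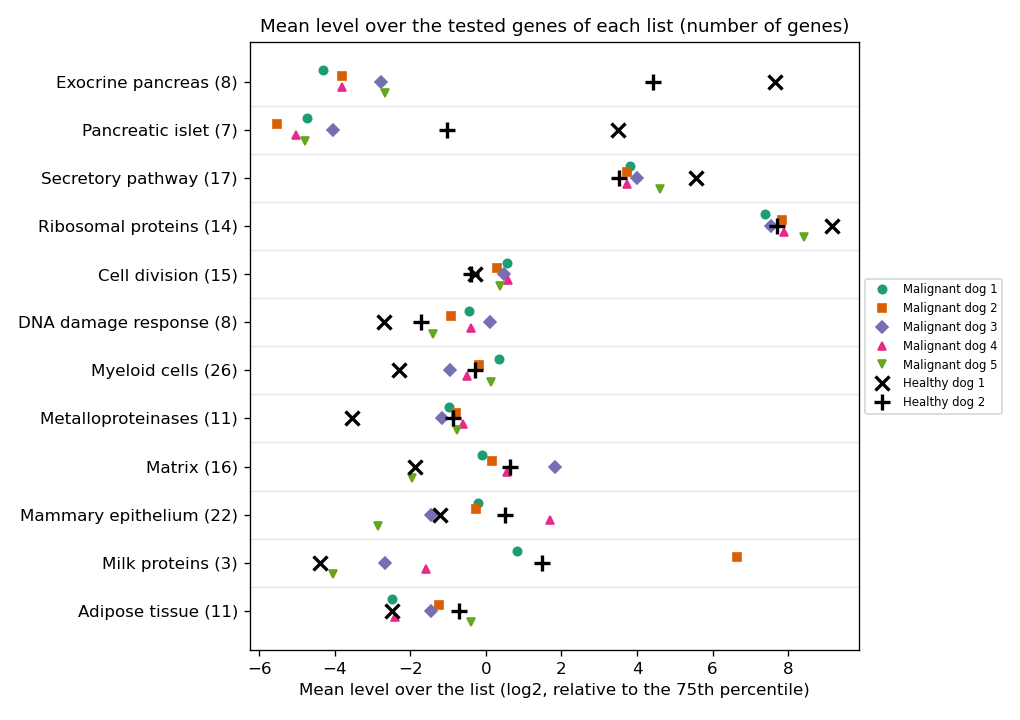
Mean level over the tested genes of 12 lists (x axis, log2 relative to the 75th percentile of the array; number of genes in brackets), with 1 coloured symbol per malignant dog and a cross or plus for each healthy dog. The exocrine pancreas and islet lists set the healthy dogs apart from all tumours, and the cell division and DNA damage lists have higher means in each tumour than in either healthy dog, which for cell division rests on 4 of its 15 genes.

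The tumours differed widely among themselves in markers of epithelium, milk, cartilage and fat. KRT14 and KRT19 were at 0.86 and -3.56 in malignant dog 5, at 2.99 and 1.20 in malignant dog 3, and between 5.17 and 7.34 in malignant dogs 1, 2 and 4. KRT15, a keratin of basal cells that is named here after its values were seen, was at 6.76, 3.05, 2.65, 7.79 and -7.30 in malignant dogs 1 to 5 and at -0.11 and 4.58 in the healthy dogs. Malignant dog 5, typed as a carcinoma in the supplement, was the lowest tumour in each of these keratins. Its array was not well above background for KRT15. CSN2 and LALBA, which encode the milk proteins beta-casein and alpha-lactalbumin, were at 8.48 and 8.04 in malignant dog 2, and below 1 in each of the other tumours. The healthy levels were -5.90 and -0.46 for CSN2 and -4.41 and 1.51 for LALBA.

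COL2A1, the collagen of cartilage, was at 7.39 in malignant dog 3, at -0.11, -0.03 and 0.98 in malignant dogs 1, 2 and 4, and at -7.62 in malignant dog 5. It was not well above background in malignant dog 5. Its mean difference of 4.77 had an SE of 3.13 (adjusted p = 1.00 from limma). BGN, a proteoglycan of bone and cartilage, was also highest in malignant dog 3, at 4.39, against -4.63 in malignant dog 5. COL1A1, the main fibrillar collagen, also named after its values were seen, was at 8.70 in malignant dog 3 and 0.98 in malignant dog 5, and the healthy dogs at 0.71 and 7.14 spanned nearly as much. PPARG, the master regulator of fat cells, was at 5.09 in malignant dog 5 and between -2.32 and 0.53 in the other tumours, and ADIPOQ, a hormone of fat cells named after its values were seen, was at 4.12 in malignant dog 5 and between -1.998 and 0.48 in the others. Malignant dog 5 was the tumour with 1 array, on a slide without healthy tissue, and slide and tumour cannot be told apart there.

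**Figure D5:**
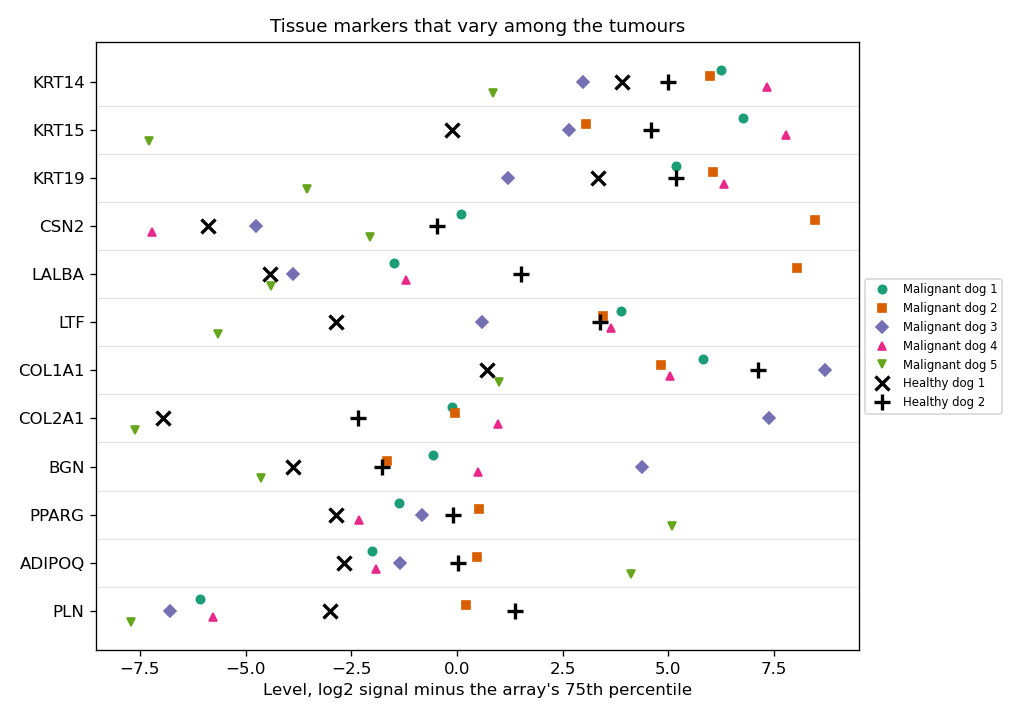
Levels (x axis, log2 signal minus the 75th percentile of the array) of 12 markers of epithelium, milk, matrix, fat and muscle, with 1 coloured symbol per malignant dog and a cross or plus for each healthy dog. Malignant dog 2 is highest in CSN2 and LALBA, malignant dog 3 in COL1A1, COL2A1 and BGN, and malignant dog 5 in PPARG and ADIPOQ and lowest in KRT14, KRT15 and KRT19.

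The number of genes at least 1 beyond both healthy dogs also differed among tumours. It was 1942, 1208, 4519, 2365 and 3822 above and 2119, 1054, 2920, 1702 and 3009 below in malignant dogs 1 to 5. Malignant dogs 3 and 5 had the most in both directions and malignant dog 2 the fewest. The arrays of malignant dog 3 also had the weakest signal of the tumours, a 75th percentile of 6.37 and 8.46 times the median background against 15.2 to 39.9 on the others, and malignant dog 5 rests on 1 array. The part of signal strength in these counts was not tested.

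A sixth malignant dog, not among the 5 and typed as a fibrosarcoma in the supplement, had values in the table of spot signals of all arrays, which has no background taken off and so holds low genes closer together. It was placed beside the healthy dogs of the same table. In the 75 genes at least 1 above each healthy dog in the 5 tumours, this dog was above both healthy dogs in 60 (80%), beside 36.5% of all genes tested. In the 197 genes at least 1 below, it was below both in 187 (94.9%), beside 28.6% of all genes tested. The same healthy arrays chose these genes and enter both counts, so the counts are a description. The 12 genes plotted for the gap upwards were above both healthy dogs in this dog, and the 12 plotted for the gap downwards were below. CCNB2 was at -0.33 in the sixth dog and at -2.94 and -2.36 in the healthy dogs, and BIRC5 at 0.23 against -0.78 and -1.25. H19 was at 2.02 against -2.90 and -2.61, and BHLHE41 at 4.45 against 1.28 and 2.08. ASPM and CCR1 were close to the higher healthy dog, at -2.41 against -2.59 and at -2.90 against -2.93. CSN2 and LALBA were at 8.73 and 8.11 in this dog, and COL2A1 at 5.49. The milk protein genes were thus high in a dog typed as a fibrosarcoma, and the typing was not tested.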

How the data were processed

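RNA of mammary tissue was labelled with Cy3 and hybridised to Agilent canine arrays (1 colour, 45220 spots, 1417 of them controls). For each array the authors deposited the scanner output of Feature Extraction 11.5.1.1 (per the labels), in which signals are an intensity on a linear scale: the processed signal has the background taken off. A second deposited file, of all arrays side by side, gives unscaled spot intensity, and its values were equal to the median signal of the scanner on all 13 arrays. The normalization that the study used is not given in the sources used here; the test in its methods was a paired t-test, corrected after Storey.

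From these, log2 of the processed signal minus the 75th percentile of the array over probes other than controls was computed, without outlier spots, and values were averaged within a dog. A gene took its probe with the highest mean level, and 27249 of 36619 genes were tested, those whose probe passed the scanner's background flag on 4 or more arrays. Malignant and healthy dogs were compared with limma 3.58.1 in R 4.3.3 on 7 dogs, with Benjamini-Hochberg adjustment and a threshold of 0.05, tested on simulated data. With 1 healthy dog, its spread was assumed to equal that of the malignant dogs. The methods' t-test was run without pairs, since no dog gave both tissues. Where a whole group was not well above background, the fold is a lower bound under the main processing. It is taken from the mean of the other group and the lowest signal well above background on each array. The normexp alternative (offset 50) used the median signal, because the files analysed hold no mean signal.

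Symbols came from RefSeq transcripts (assembly UU_Cfam_GSD_1.0), through which 2353 of 43603 probes and 1250 tested genes had a name, and no coordinates are given because the probes were placed on another build. No sequences of probes were at hand. Named genes are, among genes with a symbol outside the set-aside lists that were well above background on 1 or more arrays of each group, the 12 with the widest gap upwards and the 12 downwards, all called genes with a symbol, and up to 4 per list with the largest moderated t, unless the text says otherwise. The groups, 24 gene lists and rules were chosen with earlier results of these data known. List members without a probe that had a symbol, or whose probe did not pass the background flag on enough arrays, were not tested. No column of values per sample was left unused (0), and benign arrays were not used here. p-values measure the spread between these dogs.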

Additional observations from a re-analysis of the deposited data

Results flagged for a closer look

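Among 79 genes examined dog by dog, 4 had a malignant dog far from the other 4 by Dixon's criterion, where chance flags about 1 in 20. H19 was highest in malignant dog 2, at 0.93 against -2.15 in the next dog, a gap of 0.902 of the range. LALBA was highest in malignant dog 2, at 8.04 against -1.21, a gap of 0.743 of the range. PLN, which encodes phospholamban of muscle, was highest in malignant dog 2, at 0.22 against -5.78, a gap of 0.757 of the range. ABCC1, a drug transporter, was highest in malignant dog 3, at -0.63 against -1.68, a gap of 0.7104 of the range.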

How the results depend on the processing

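The 68 genes called lower and the 45 called against each healthy dog stayed within 1.5 times their number under the table of signals, normexp, quantile normalization, no filter and the mean over probes (62 to 76 and 49 to 51). With probes well above background on all 13 arrays, 23 and 16 were called. With each array counted as independent, 407 were lower and 307 higher, and with the replicate block, 24 and 0. The numbers are shared by 2 pairs of different dogs, so they do not pair them. The deviations of these pairs from the group means correlated at -0.19 and 0.11. The 2 values are not separate checks, because the 2 healthy dogs deviate from their mean by equal and opposite amounts. The methods' t-test counted 497 lower and 585 higher without adjustment, and 9 and 0 both with Benjamini-Hochberg adjustment and with the Storey correction. Leaving out 1 dog gave 47 to 468 lower and 0 to 43 higher, the highest without healthy dog 2. The 1 gene called higher became 0 with the table of signals (with or without the added arrays), normexp and the strict filter, 2 with no filter and 11 with dog as a random block.

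The 75 genes above each healthy dog became 16 and the 197 below became 101 with the table of signals and malignant 5b, 6a and 6b added, 18 and 108 with the table and the same arrays, 11 and 100 with normexp, and 16 and 70 with the strict filter. With single arrays 47 lay above. Leaving out 1 dog gave 85 to 1643 above and 211 to 2050 below, the highest without healthy dog 2; without malignant dog 2 or 5, 166 and 137 lay above, and without healthy dog 1, 173 above and 559 below. At a threshold of 0 there were 1182 above and 748 below, and at a threshold of 2, 11 and 110.

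Counts beyond each healthy dog were not run with dog or slide as a block, since those fits give no level per dog. For 79 genes examined dog by dog, 1542 values under the alternatives kept their direction and side of the threshold, 79 passed it anew, 61 no longer passed it and 21 turned direction. The difference of CCR1 turned to -0.16 with normexp, -0.0809 with the table of signals and -0.0324 with the added arrays. KRT14 turned to -0.26 with the mean over probes, and KRT19 to 0.51 with slide fixed and dog as a random block and 1.36 with the replicate block. Leaving out 1 dog reversed KRT14 (-0.44 to 1.18), KRT15 (-1.99 to 2.82), KRT19 (-2.15 to 0.42), CSN2 (-0.63 to 4.81), LALBA (-2.10 to 3.82), LTF (-2.19 to 4.06), ADIPOQ (-0.16 to 2.54) and COL1A1 (-2.06 to 4.37), for which the cause was not tested. Values near background limit the genes with low signals most.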
